A study of Mus musculus with 20 samples.

Results

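Open chromatin 1 week after a second wound was compared with open chromatin at homeostasis in sorted mouse tail epidermal cells. The 1-week second-wound list of ATAC-seq peaks was set against the homeostasis list, overlapping peaks of a list were merged into regions, and a region was called shared when it overlapped a region of the other list by at least 1 bp. A region of the second-wound list with no such overlap was called gained, and a region of the homeostasis list with none was called lost. The merged regions of both lists numbered 46340, of 101406 over all 10 lists of the series.

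ATAC-seq maps open chromatin by letting Tn5 transposase insert sequencing adapters into accessible DNA. The series has 20 libraries in 10 groups of 2, of which 4 libraries enter this comparison. All groups have the genotype Lrig1CreER/Rosa-TdTomato, in which Cre made under the control of Lrig1 switches on a red fluorescent protein, so only cells that once expressed Lrig1, with their progeny, carry the mark. Both groups were sorted as Lrig1 GL Sca1+ epidermal cells to enrich for the upper hair follicle, where Sca1, the product of Ly6a, is found on the surface. The control group is labelled homeostasis, and the other group was sampled 1 week after its second wound; the labels give no age, sex or interval between the wounds. Each group has 1 deposited list made from both of its libraries, so there is no spread between replicates, no difference could be tested, and the intervals given are 95% Wilson intervals for counting error only.

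The upper hair follicle, or infundibulum and junctional zone, lies between the bulge, which holds slow-cycling stem cells, and the surface epidermis. Its Lrig1-expressing cells maintain the follicle mouth and the sebaceous gland, and after wounding they move into the interfollicular epidermis and can stay there. In wounded epidermis keratinocytes release preformed interleukin-1, shed ligands of the EGF receptor, change their integrins and connexins, and later rebuild the cornified layer with transglutaminases and envelope proteins. An accessible region marks DNA that proteins can reach, at a gene start or at a distant enhancer; it does not by itself show that a gene is transcribed.

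The promoters of 8 genes carry the contrasts described next, and are shown as the 250 bases before the transcription start, 5′ to 3′ on the strand of the gene, from RefSeq on GRCm38.p6. Zfp59, which encodes a zinc finger protein, had one of the strongest gained regions at a start and Snap23, which encodes a SNARE protein of membrane fusion, one of the strongest lost. The integrin gene Itgb6 and the connexin gene Gjb2 had a gained region at the start, the cytokine gene Il1a and the EGF receptor ligand gene Epgn a lost one, and Serpina3n, a serine protease inhibitor gene, and Trex2, a keratinocyte exonuclease gene, had the largest rises in rank at a start; these last 6 were chosen for display after their values were seen. Capitals mark matches on either strand to short motifs of transcription factors. For the ETS family the letters searched were CCGGAAG. For SP and KLF zinc finger factors they were GGGCGG. NF-Y, a factor of many promoters, was searched as CCAAT. The letters of AP-1, the Fos and Jun dimer, were TGANTCA. Those of the GATA family were AGATAA. Those of TEAD, the Hippo pathway factors, were GGAATG. The ETS and TEAD motifs have the letters GGAA in common.
Zfp59, chr7:27838334-27838583, plus strand: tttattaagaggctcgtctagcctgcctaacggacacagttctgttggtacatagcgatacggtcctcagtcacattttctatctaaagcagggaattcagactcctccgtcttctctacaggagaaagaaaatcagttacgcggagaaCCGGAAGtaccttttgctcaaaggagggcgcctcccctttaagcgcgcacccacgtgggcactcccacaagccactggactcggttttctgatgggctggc
Itgb6, chr2:60673694-60673943, minus strand: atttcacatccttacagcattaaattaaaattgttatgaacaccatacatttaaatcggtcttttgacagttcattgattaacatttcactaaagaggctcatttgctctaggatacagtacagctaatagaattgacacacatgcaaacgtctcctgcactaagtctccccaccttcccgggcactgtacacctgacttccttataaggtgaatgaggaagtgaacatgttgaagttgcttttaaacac
Gjb2, chr14:57104703-57104952, minus strand: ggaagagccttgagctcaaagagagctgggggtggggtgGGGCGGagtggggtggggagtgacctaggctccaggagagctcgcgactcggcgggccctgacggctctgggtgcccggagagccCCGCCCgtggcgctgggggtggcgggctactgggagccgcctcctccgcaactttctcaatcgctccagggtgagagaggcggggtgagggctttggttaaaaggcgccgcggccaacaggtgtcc
Snap23, chr2:120567421-120567670, plus strand: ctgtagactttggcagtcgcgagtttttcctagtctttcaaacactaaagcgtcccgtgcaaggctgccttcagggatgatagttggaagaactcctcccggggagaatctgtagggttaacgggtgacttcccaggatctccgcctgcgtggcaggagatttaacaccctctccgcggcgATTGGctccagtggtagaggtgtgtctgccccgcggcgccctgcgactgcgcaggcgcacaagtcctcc
Il1a, chr2:129309973-129310222, minus strand: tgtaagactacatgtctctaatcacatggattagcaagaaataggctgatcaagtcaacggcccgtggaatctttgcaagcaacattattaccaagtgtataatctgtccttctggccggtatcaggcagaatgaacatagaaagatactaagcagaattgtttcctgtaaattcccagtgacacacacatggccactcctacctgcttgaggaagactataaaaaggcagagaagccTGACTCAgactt
Epgn, chr5:91027267-91027516, plus strand: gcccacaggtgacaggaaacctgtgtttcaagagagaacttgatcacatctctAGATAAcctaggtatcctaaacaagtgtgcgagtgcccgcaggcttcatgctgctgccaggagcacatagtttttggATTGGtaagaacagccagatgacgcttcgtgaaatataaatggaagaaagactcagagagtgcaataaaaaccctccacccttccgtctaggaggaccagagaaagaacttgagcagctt
Serpina3n, chr12:104406458-104406707, plus strand: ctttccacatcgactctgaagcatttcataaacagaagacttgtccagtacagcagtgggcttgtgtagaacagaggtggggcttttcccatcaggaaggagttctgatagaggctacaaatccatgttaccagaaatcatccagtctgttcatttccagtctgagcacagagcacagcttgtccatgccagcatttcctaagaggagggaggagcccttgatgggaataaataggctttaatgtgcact
Trex2, chrX:73435344-73435593, minus strand: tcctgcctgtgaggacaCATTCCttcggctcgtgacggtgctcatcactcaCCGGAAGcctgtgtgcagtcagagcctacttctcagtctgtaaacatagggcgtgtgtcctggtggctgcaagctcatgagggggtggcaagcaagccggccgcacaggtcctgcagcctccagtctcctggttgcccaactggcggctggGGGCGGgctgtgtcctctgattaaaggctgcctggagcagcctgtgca
Of the 4 gained or rising promoters other than Zfp59, Gjb2 holds 2 SP and KLF matches and Trex2 1 match each to ETS, SP and KLF, and TEAD, whereas Itgb6 and Serpina3n hold none of the 6 motifs in the stretch shown. The Il1a promoter has 1 AP-1 match just before its start, and Epgn has 1 NF-Y and 1 GATA match. A match is a string of letters and not evidence that a factor was bound.

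The markers of the sorted cells were open in both lists, and so were some markers of other skin cells. Lrig1 had 10 shared, 2 gained and 2 lost regions, and the region at its start stood at percentile 63.0 of the shared regions at homeostasis and 42.1 after the second wound. Ly6a had 1 shared region, the basal keratin gene Krt5 had 3 shared regions, Krt14 had 3 shared, 2 gained and 2 lost, and Trp63, the master transcription factor gene of stratified epithelia, had 11 shared, 3 gained and 3 lost. Of the T cell markers, 8 of 14 had no region, among them Cd3e, Cd3d, Cd3g, Cd4 and Cd8a, and the list as a whole held 16 regions at homeostasis and 18 after the second wound. The myeloid and Langerhans list held 15 and 17 regions, at 8 of 15 markers, of which 8 shared and 3 gained lay at the epithelial adhesion gene Epcam, and Csf1r, Itgax, Cd74 and Lyz2 had none. Fibroblast markers held 17 and 23 regions, at 9 of 15 markers, with none at Col1a2, Col3a1 and Lum. The matrix gene Dcn had 3 gained and Col1a1 2 gained regions. A gained region lay at the starts of Col6a1 (signal value 4.61) and Col6a2 (7.22), and the start of Vim was lost (7.43). In this list 5 members had more gained than lost and 2 more lost. Of its 15 shared regions 0 rose and 4 fell in rank by at least 25 percentile points. Endothelial markers held 34 and 41 regions, at 12 of 14 markers, and melanocyte markers 9 and 15, at 5 of 12, with Mitf at 4 gained and 5 shared and Tyr, Mlana and Kit at none. The Merkel cell list held 5 and 8 regions, at 6 of 11 markers, with none at Atoh1 and Krt20. The part that other cells play in the differences was not tested, and in such bulk lists fewer cells of a type and less accessibility per cell cannot be told apart.

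Both sex chromosomes differed between the lists. The Y chromosome had 10 regions after the second wound and 4 at homeostasis, and the starts of Ddx3y (signal value 23.3), Uty (18.6) and Eif2s3y (14.8) were open in the second-wound list and absent from the homeostasis list. These 3 starts were also in the lists of the first wound at 1 week, of wounding with UVB and of both cultures, and in none of the other 4 lists. On the X chromosome the shared regions stood higher after the second wound, with a median change of 7.78 percentile points over 532 regions against -0.38 over the 29759 autosomal ones. The cause was not tested, and whether sex differed between the groups was not tested either. X-linked results are therefore named as such, and counts without both chromosomes are given beside the first counts. Those counts leave out X and Y regions only, so any autosomal difference between the sexes would remain in them. Such a difference could not be told apart from one after wounding.

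The second-wound list was longer, and more regions were gained than lost. Of its 42200 regions 11512 were gained (27.3%, 26.9 to 27.7%), and of the 35195 homeostasis regions 4534 were lost (12.9%, 12.5 to 13.2%). Without the X and Y chromosomes 11316 were gained and 4412 lost. With the second-wound list cut to its 35195 strongest regions, the length of the homeostasis list, 8174 were gained and 8000 lost. Only weak second-wound regions drop out, so the homeostasis partners of weak shared regions count as lost. Lists of equal length fix these counts near each other, so this cut compares genes and gene lists but does not bear on the excess itself. The signal value is the authors' enrichment score for a peak and is used here only to rank regions within a list.

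Gained and lost regions were weaker and narrower than shared ones. The median gained region stood at percentile 29.5 of the second-wound list and the median lost region at percentile 21.5 of the homeostasis list, against 60.0 and 55.4 for the shared regions of each. A signal value above the median of its own list was found for 22.5% of the gained and 11.3% of the lost regions, and the strongest 10% of a list held 90 gained and 4 lost. Median widths were 490 bp for gained, 416 bp for lost, and 667 bp and 653 bp for shared regions in the second-wound and homeostasis lists. Regions under 300 bp wide made up 14.2% of the gained, 24.3% of the lost and 4.32% of the shared second-wound regions.

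**Figure D1:**
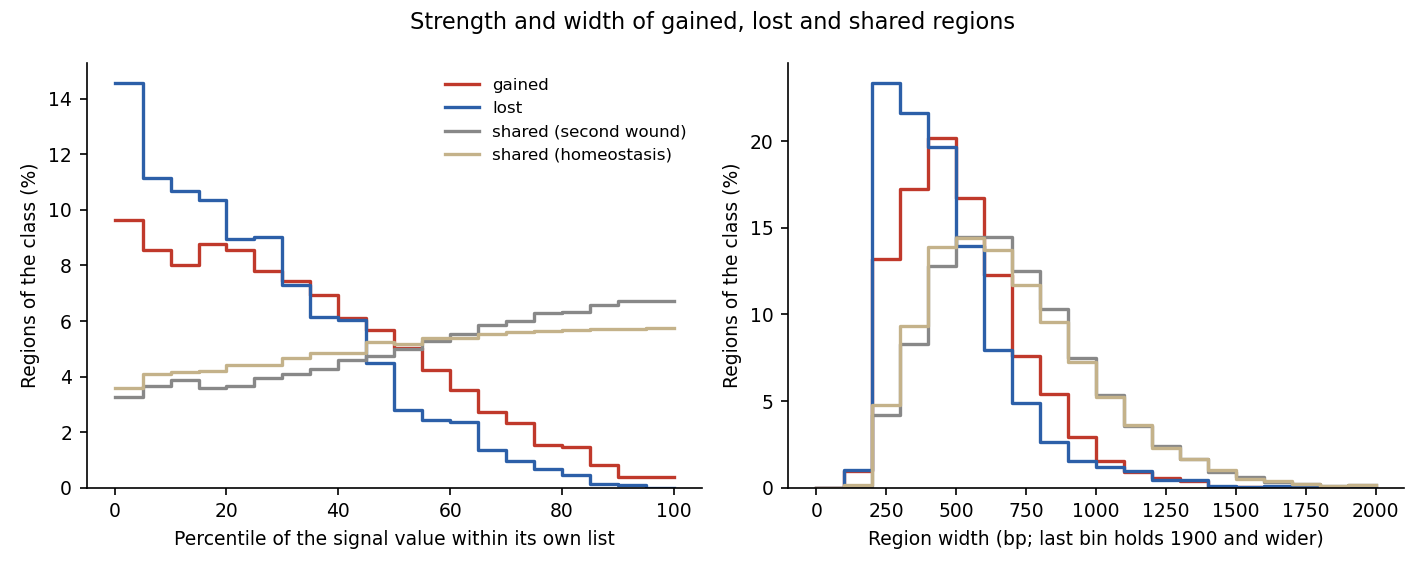
Share of the regions of each class (y axis, percent) by percentile of the signal value within the region's own list (left) and by width in bp (right), for gained, lost and shared regions. Gained and lost regions pile up at low percentiles and small widths, with medians at percentiles 29.5 and 21.5, while both sets of shared regions lie higher and wider.

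Most gained regions had been seen in other groups. In the vehicle list, which holds 70008 regions from vehicle-treated epidermis, 86.5% of the gained, 94.2% of the lost and 99.6% of the shared regions were present. Of the gained regions 258 (2.24%) were in none of the other 8 lists and 1219 (10.6%) in all of them, and of the lost regions 32 (0.71%) and 663 (14.6%). Among the gained regions in no other list 43.0% were under 300 bp wide, against 11.9% among those in all 8. Against the longer vehicle list, 1686 second-wound regions were gained and 29679 lost.

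Gained regions lay away from gene starts. A start lay within 1 kb of the summit for 710 of 11142 gained regions (6.37%, 5.93 to 6.84%), for 576 of 4377 lost regions (13.2%, 12.2 to 14.2%) and for 8328 of 29672 shared regions (28.1%, 27.6 to 28.6%); chromosome 18 is left out of these counts. Median distances to the nearest start were 35.7 kb, 28.03 kb and 18.2 kb. The share within a gene was 53.1% of gained, 51.3% of lost and 52.0% of shared regions, and 9.47% of gained and 7.30% of lost regions lay over 100 kb from any protein-coding gene. Within 500 bp of a region of the other list lay 6.39% of gained and 11.9% of lost regions.

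**Figure D2:**
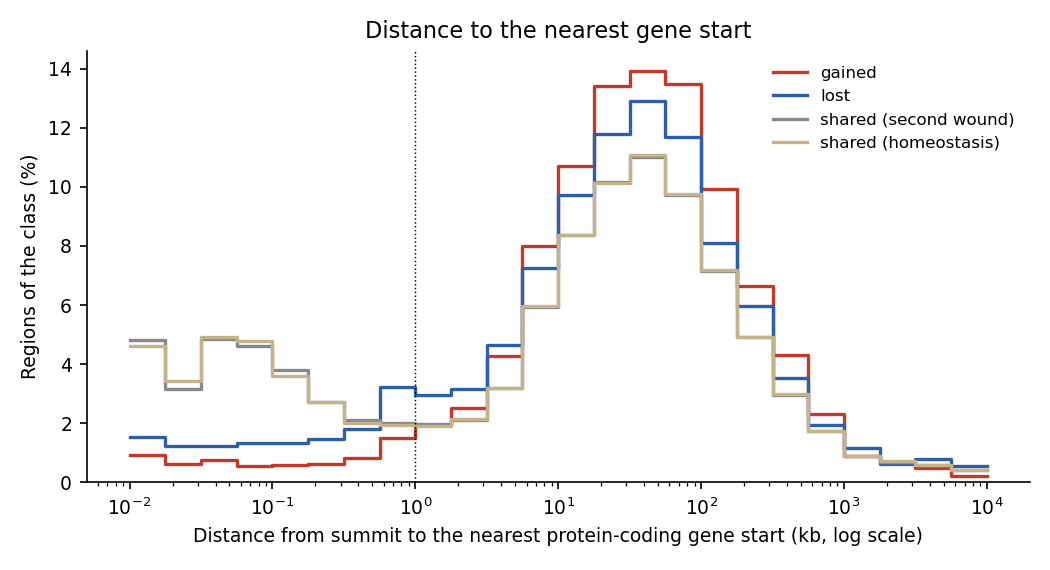
Share of the regions of each class (y axis, percent) by distance from the summit to the nearest protein-coding gene start (x axis, kb, log scale), with the dotted line at 1 kb. Shared regions have a second hump close to starts that gained and lost regions lack, and 6.37% of gained against 28.1% of shared regions lie left of the line.

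Most list members with a start in the table had a shared region or none there. In the epidermal differentiation list 3 starts had a gained region, 1 a lost one and 10 a shared one, and 14 had none; among EGF receptor and growth factor receptor genes 1 was gained, 1 lost and 14 shared. The starts named next are single genes. The start of Itgb6, the epithelial integrin subunit that activates TGF-beta, had a gained region at chr2:60673384-60673886 with a signal value of 12.1, and the gene had 12 shared regions besides. The gap junction genes Gjb2 (chr14:57104198-57105034, 5.94) and Gjb6 (5.69), which encode the connexins 26 and 30 of epidermis, each had a gained start, as did Btc (9.33), an EGF receptor ligand gene, and Casp1 (7.84), the protease gene that processes interleukin-1 beta. These values lie low in the list: only the Itgb6 region exceeded the median signal value of shared second-wound regions, 10.5.

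Structural genes of the cornified layer were split. The crosslinking enzyme genes Tgm1 (5.59) and Tgm5 (7.52) and the envelope gene Ivl (5.89) had a gained start, and Tgm3 (7.69) a lost one. In the upper follicle list Krt79, the keratin gene of the infundibulum and sebaceous duct, had a gained start (4.91) and 4 gained regions with none lost or shared, Lgr6, a receptor gene of upper follicle stem cells, had a gained start (5.82), and Ptch1, the Hedgehog receptor gene, a lost one (3.47). Edn1, the gene of the peptide endothelin-1, had a gained start (5.64) and 9 gained and 2 shared regions in all.

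Il1a and Epgn, genes of signals that keratinocytes release, were among the lost starts. Il1a had 1 region, at its start (chr2:129309825-129310163, signal value 11.5, percentile 72.5 of the homeostasis list), and none after the second wound. Epgn had a lost start (chr5:91027054-91027631, 11.5, percentile 72.1), 1 further lost, 1 gained and 2 shared regions. Both lost starts were present in 7 of the other 8 lists, the first wound at 1 week included, and absent at 8 weeks. Plaur, the urokinase receptor gene (6.96), Mmp14, a membrane-bound matrix protease gene (3.48), the Notch ligand gene Dll1 (3.74), the Wnt-responsive transcription factor gene Lef1 (4.63) and the Polycomb subunit genes Cbx7 (7.76) and Phc3 (8.09) also had a lost start. Inhbb (3.95), the vascular receptor gene Tek (8.74) and the mesenchymal filament gene Vim (7.43) did too.

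The strongest gained and lost starts belonged to genes of varied function. On autosomes the strongest gained ones were Lrrc59, a gene of the endoplasmic reticulum membrane (19.5), Zfp59 (18.7), the nicotinic receptor subunit gene Chrnb2 (16.1), Sh3bp5 (15.7), Ngrn (15.4) and Mef2b (15.1). The strongest lost starts were Aadacl2 (15.7), Snap23 (14.8), the X-linked Nbdy (14.3), Chrna7 (13.4), the mitochondrial initiation factor gene Mtif2 (12.9), Tmem130 (12.5) and the RAS regulator gene Nf1 (12.4). Snap23, Mtif2, Lrrc59 and Zfp59 were present in all 8 other lists, so that each was missing from 1 list of the 10.

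Across all promoters in the table, those with a gained region at the window held fewer CpG dinucleotides than shared ones and more than those with no region. The median number of CpG dinucleotides in the 300 bases around the start was 17 in the 554 gained, 20 in the 437 lost, 23 in the 9609 shared and 4 in the 10662 promoters with no region. The ETS letters were in 7.58% (5.66 to 10.1%) of gained, 11.4% (8.79 to 14.8%) of lost, 21.0% of shared and 11.6% of all promoters of that length. SP and KLF letters were in 58.3%, 60.2%, 70.8% and 46.2% in the same order, NF-Y in 30.1%, 29.1%, 39.7% and 38.2%, and GATA in 7.58%, 7.78%, 5.04% and 9.65%. AP-1 letters were in 5.96% of gained, 6.64% of lost, 4.76% of shared and 6.99% of all promoters, and TEAD letters in 14.4%, 12.4%, 11.0% and 13.6%. The intervals of gained and lost promoters overlap for each of these 6 motifs. The other 8 of 14 motifs searched on both strands were CRE TGACGTCA, in 2.23% of all promoters, NF-kB GGANTTTCC (1.28%), RUNX TGTGGT (15.0%), GRHL AACCGGTT (0.18%), E-box CAGCTG (15.6%), C/EBP TTGCGCAA (0.22%), the p53 family motif ACATGTC (1.46%) and the CTCF core CCACTAGGG (0.18%), and NF-kB letters were in 2.17% of gained and 0.69% of lost promoters. The stretches shown hold no CRE or NF-kB match, and matches to the other 6 are not set in capitals.

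Shared regions kept much of their order. Over the 30294 merged shared regions the signal ranks correlated across regions with a Spearman coefficient of 0.842, a description with no p since regions of a list are not replicates. A rise of at least 25 percentile points was seen in 1976 regions (6.52%) and a fall of that size in 1740 (5.74%). Regions at starts moved less and more often down, with 195 of 8148 rising (2.39%) and 362 falling (4.44%), whereas away from starts 1710 of 21140 rose (8.09%) and 1316 fell (6.23%). Of the 195 rising starts 34 were X-linked, out of 246 X-linked starts (13.8%), against 161 of 7902 autosomal starts (2.04%).

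**Figure D3:**
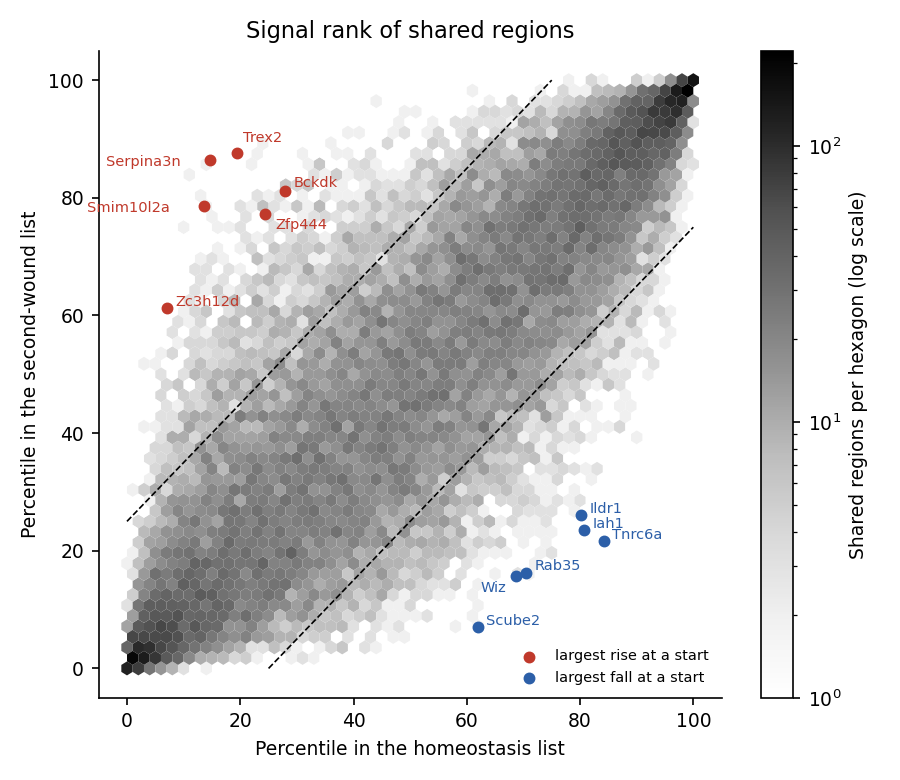
Percentile of the signal value among shared regions in the homeostasis list (x axis) against the second-wound list (y axis), with hexagons shaded by the number of regions on a log scale and dashed lines at a change of 25 points. The 6 largest rises at starts (red) and falls at starts (blue) are named; Serpina3n and Trex2 lie above percentile 86 in the second-wound list and below 20 at homeostasis.

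The largest rise at a start was at Serpina3n, from percentile 14.6 at homeostasis to 86.4 after the second wound. Its region was also present in the lists of the first wound at 1 week, UVB, wounding with UVB and PRT4165, an inhibitor of the H2A ubiquitin ligase of Polycomb complex PRC1, and absent from those at 8 weeks, of vehicle and of both cultures. The X-linked Trex2 moved from 19.4 to 87.7, Smim10l2a from 13.6 to 78.7 and Irak1, the kinase gene of the interleukin-1 receptor pathway, from 30.7 to 82.9. Smim10l2a, Irak1 and the actin crosslinker gene Flna, 1 of whose 2 shared regions moved from 5.84 to 50.5, are X-linked too. Autosomal rises at starts included Zc3h12d (7.06 to 61.2), Bckdk (27.95 to 81.2), Zfp444 (24.3 to 77.2) and the alcohol dehydrogenase gene Adh1 (25.6 to 77.1). The start of Wwtr1, which encodes the Hippo pathway coactivator TAZ, moved from 34.98 to 65.1.

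The largest falls at starts were at genes of varied function. Tnrc6a, a gene of microRNA silencing, fell from 84.2 to 21.6, Iah1 from 80.7 to 23.6, Scube2, a gene of Hedgehog release, from 62.0 to 7.08, the trafficking gene Rab35 from 70.4 to 16.3 and Ildr1 from 80.1 to 26.1. Among list members Birc3, an NF-kB target and inhibitor of apoptosis, fell from 70.3 to 24.0, the Wnt receptor gene Fzd7 from 68.0 to 33.6, the PRC1.1 subunit gene Kdm2b from 61.9 to 25.3, and the glycolytic genes Ldha from 82.9 to 52.3 and Pdk1 from 74.4 to 46.9. Away from starts the largest rise, at Pkn3 (13.0 to 96.7), was in a region 192 bp wide that no other list held. Mroh3 (14.6 to 94.1), Samd5 (9.997 to 84.7) and Kcnip1 (11.4 to 84.3) followed. The next region, 86948 bp outside Elovl4, a gene of very long fatty acid synthesis, moved from 1.73 to 73.6. The largest falls were near Atp6ap1l (76.0 to 10.5), Rsph4a (86.4 to 20.9) and Nav1 (90.1 to 26.2).

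The 12 genes with the largest excess of gained over lost regions spanned 209 to 1612 kb each. Of the 14055 genes with a region 4954 had more gained than lost (35.2%) and 1781 more lost than gained (12.7%); a region belongs to the gene that contains its summit, or to the nearest within 100 kb, which is not evidence that it regulates that gene. Kalrn had 14 gained, 0 lost and 4 shared regions across 604 kb, and 11 of the gained ones followed each other with no shared or lost region between. Lpp, a gene of focal adhesions, had 15 gained and 1 lost, Pard3, a cell polarity gene, 13 and 1, the planar polarity gene Prickle2 and the transcriptional coregulator gene Zmiz1 12 and 1 each, and Foxp1, Rbms3, the neurotrophin receptor gene Ntrk2 and the kinase gene Sik3 11 and 0 each. Sash1 had 11 and 1, Zbtb20 10 and 0 and Fhit 9 and 0.

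The same homeostasis list served as control for the first wound, so the choice of these genes favours more gained than lost there too, and the counts are given only side by side. After the first wound at 1 week the 12 genes had 6 (Fhit) to 16 (Ntrk2) gained regions and 0 to 3 lost, and at 8 weeks 2 to 6 and 0 to 4. At 1 week Kalrn had 12 gained and 0 lost regions, Foxp1 13 and 1, Ntrk2 16 and 0, and at 8 weeks the same genes had 5 and 0, 5 and 0, and 3 and 2. With the lists cut to equal length 11 of the 12 highest genes kept more gained than lost, and 1 had as many of each; with vehicle as the control all 12 had more lost.

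The largest excesses of lost over gained regions were smaller. Alk had 1 gained and 6 lost, Mtap, the methylthioadenosine phosphorylase gene, 0 and 5, and Pde4d 3 and 7. Msrb3, a methionine sulfoxide reductase gene, Nav1, the deubiquitinase gene Usp25, Tex14 and Sgk3 had 0 gained and 4 lost each, Septin5 2 and 5, the flagellin receptor gene Tlr5 and the actin-responsive coactivator gene Mrtfb 0 and 3 each, and Spink2 1 and 4. The 4 lost regions of Tex14 lay within 4.62 kb. With genes within 20 kb Mtap and Septin5 had as many gained as lost regions, and the other 10 kept more lost. All 12 had more lost with equal lengths and with vehicle as the control, but neither setting is a check on these genes. The cut removes second-wound regions only, so it cannot turn a gene with more lost. The vehicle list is longer, which favours lost regions. These settings raised the number of genes with more lost than gained from 1781 to 3326 and 9945.

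**Figure D4:**
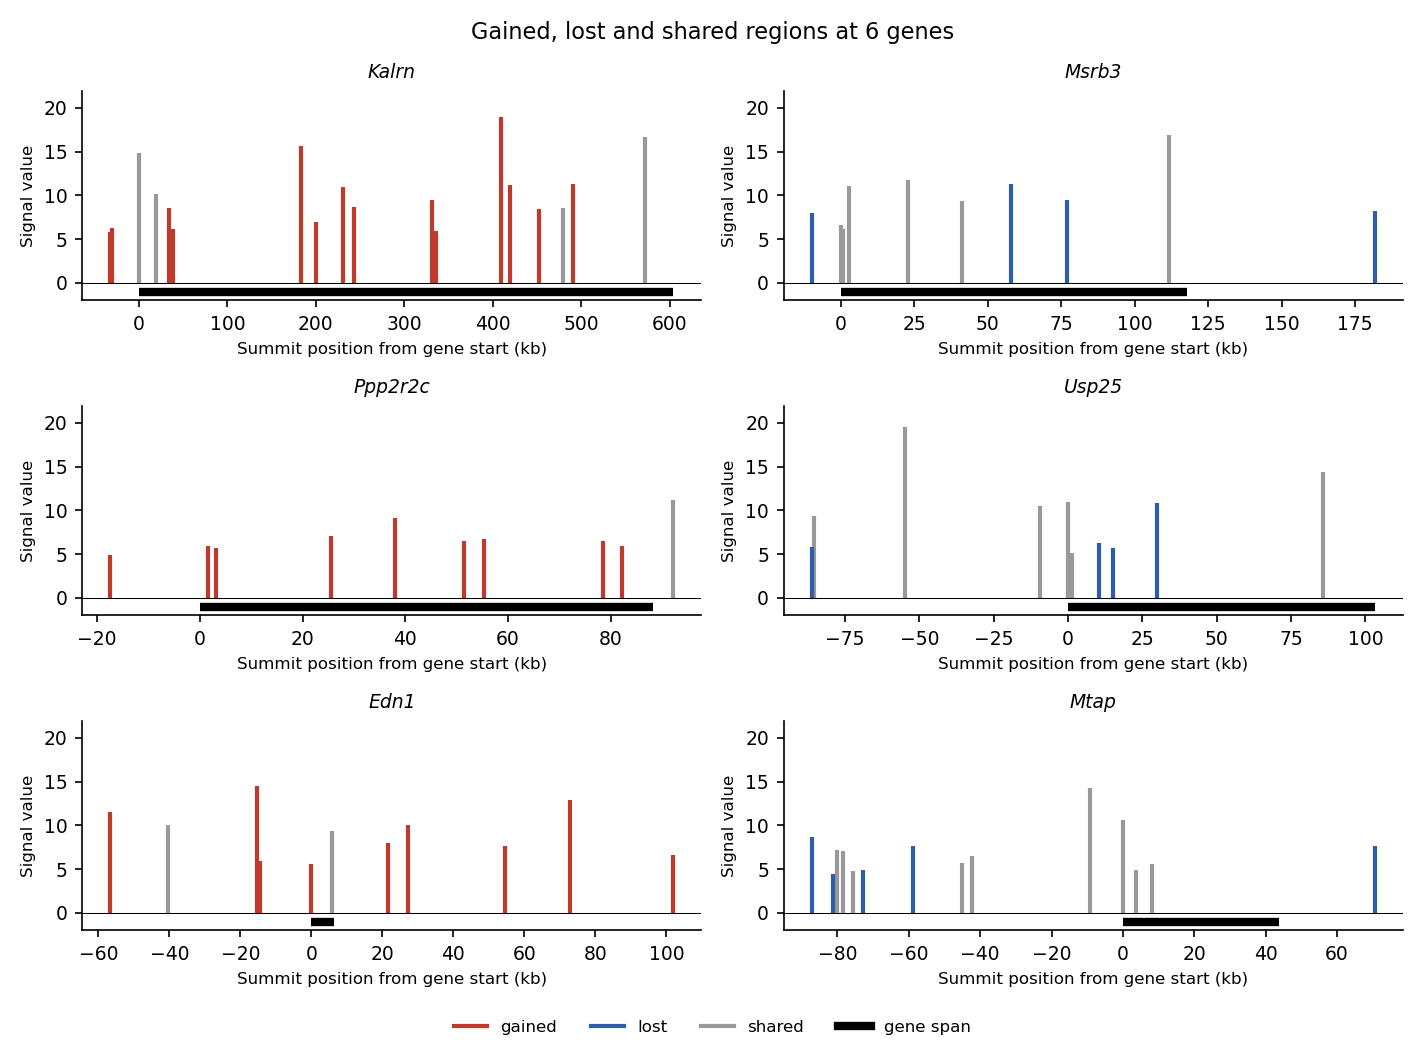
Summits of gained (red), lost (blue) and shared (grey) regions at 6 genes, as distance from the gene start in the direction of the gene (x axis, kb) against the signal value (y axis, from the homeostasis list for lost regions and the second-wound list otherwise); the black bar is the gene. Kalrn, Ppp2r2c and Edn1 hold 14, 9 and 9 gained regions and no lost one, while Msrb3, Usp25 and Mtap hold 4, 4 and 5 lost regions and no gained one.

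Of the runs of gained regions, 2 at keratin genes are described here, chosen after their values were seen. A run of 6 gained regions with no shared or lost one between covered 115 kb at the keratin genes Krt10, Krt24, Krt27 and Krt28, and another of 6 covered 76.6 kb at Krt75 and Krt84. Krt75, a keratin gene of the companion layer, had 4 gained and no other region. Other keratin genes varied: Krt79 had 4 gained regions, Krt14 had 2, and Krt1, Krt6a, Krt15 and Krt77 had 1 each. Krt5, Krt16 and Krt17 had no gained region. Ppp2r2c, which encodes a regulatory subunit of phosphatase 2A, had 9 gained regions in a row over 99.9 kb. Over the genome 661 runs of at least 3 gained regions were counted and 56 of at least 3 lost ones. Gained regions were 11512 and lost ones 4534 of the 46340 merged regions, and a larger class gives more and longer runs at random order. Whether runs go beyond these shares was not tested.

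The 27 gene lists are given by the share of their second-wound regions that were gained and of their homeostasis regions that were lost, beside 26.9% and 12.9% for all protein-coding genes. The Wnt pathway list had 70 gained, 13 lost and 139 shared regions, which is 33.5% gained (27.4 to 40.1%) and 8.55% lost (5.07 to 14.1%). Of its 40 members 26 had more gained than lost and 3 more lost, and 5 had no region. Of all genes with a region 35.2% had more gained and 12.7% more lost. The members held 209 second-wound regions, against 38745 over the 14055 genes with a region, so they held more regions each than genes in general. The receptor genes Lgr4 and Ror2 had 6 gained and 0 lost each, the coreceptor gene Lrp5 and Fzd7 5 and 0 each and the transcription factor gene Tcf7l2 4 and 0, while Lef1 had 1 gained and 3 lost. At equal list length it had 49 gained and 35 lost.

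Gained shares of the follicle and epidermal lists ran from 22.5% to 34.5%, and the interval of each covered the 26.9% of all genes. Epidermal differentiation genes had 41 gained and 17 lost regions (34.5% and 17.9%), with 15 of 34 members gaining more and 4 losing more: Cebpb had 6 and 1, Grhl3 5 and 1, Tgm5 4 and 0, and Tgm3 5 and 7. The upper follicle list had 28 and 11 (32.2% and 15.7%), with Sostdc1, a BMP and Wnt antagonist gene, at 5 and 0 and Gata6, a transcription factor gene of the sebaceous duct, at 4 and 1; 3 of the 6 shared Gata6 regions rose in rank. The bulge list had 52 and 14 (30.8% and 10.7%), with Runx1 at 5 and 0 and Sox9 at 3 and 0. The interfollicular basal list had 40 and 29 (22.5% and 17.4%), with Dst, a hemidesmosome linker gene, at 4 and 4, Fgfr2 and Igf1r at 2 and 3 each, and Tfap2c at 5 and 0.

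Transcription factor and chromatin genes were described by 3 lists. Among epigenetic and pioneer factors 24 of 35 members gained more and 1 lost more, beside 35.2% and 12.7% of all genes with a region. The 35 members held 335 second-wound regions, against 38745 over the 14055 genes with a region. The gained share was 31.0% (26.3 to 36.2%), an interval that covers the 26.9% of all genes, and the lost share 11.5%. Besides Foxp1, Rora had 7 gained and 0 lost regions, Bach2 7 and 2, and Nfib 4 and 4. In the Polycomb list 24.4% of regions were gained and 9.23% lost, near the shares of all genes, and 7 of 31 members gained more and 4 lost more, with Jarid2 at 6 and 0 and Rybp at 4 and 0. Developmental regulators had 21 gained and 12 lost regions over 60 members (31.3%, 21.5 to 43.2%, and 20.7%, 12.3 to 32.8%). A gained start was at Hoxb1 and Hoxb4 and a lost one at Hoxd1, Isl1 and Nkx6-1.

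In each of 5 wound and inflammatory lists the interval of the gained share covered the 26.9% of all genes. Wound-activated keratinocyte genes had 16 gained and 11 lost regions (21.6%, 13.8 to 32.3%, and 15.9%), with 7 members gaining more and 6 losing more; the wound keratin genes Krt6a, Krt16 and Krt17 had 1, 0 and 0 gained and 0, 0 and 1 lost. AP-1 and immediate early genes had 28 and 12 (21.4%, 15.2 to 29.2%, and 10.4%), with Jun at 5 and 1, Fos at 3 and 0 and Jund and Egr3 at 0 and 2 each. NF-kB factors and inhibitors had 13 and 10 (18.1%, 10.9 to 28.5%, and 14.5%), with the inhibitor genes Nfkbia at 5 and 1 and Nfkbiz at 1 and 3. Interferon response genes had 6 and 2 (17.1%, 8.10 to 32.7%, and 6.45%), and alarmins and cytokines 24 and 11 (31.6%, 22.2 to 42.7%, and 17.5%), with Osmr at 4 and 2, Il33 at 3 and 2 and Csf2 at 0 and 2. At equal list length all 5 lists had more lost than gained, by 1 (interferon response) to 41 regions (AP-1).

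In each of 8 further lists, of signalling, migration, the cell cycle, metabolism and the sebaceous gland, the interval of the gained share covered the 26.9% of all genes. The TGF-beta list had 48 gained and 27 lost (30.8%, and 20%, 14.1 to 27.5%): Tgfbr3, the coreceptor betaglycan gene, had 9 and 2, the signal transducer gene Smad3 5 and 0, the inhibitor genes Smad6 4 and 0 and Smad7 1 and 3. EGF receptor and growth factor receptor genes had 48 and 20 (26.8% and 13.2%), with Nrg1 at 6 and 1 and Egfr at 3 and 1. Notch genes had 29 and 10 (25.9% and 10.8%), with the coactivator genes Maml3 at 8 and 2 and Maml2 at 8 and 3. Migration and matrix genes had 49 and 19 (27.2% and 12.7%), with the hyaluronan receptor gene Cd44 at 7 and 0. The p53 list had 29 and 14 (21.97% and 11.97%), with Rad51b, a recombination repair gene, at 12 and 4 and Gadd45b at 4 and 0; cell cycle genes had 13 and 5 (19.1% and 8.33%), with Cdk6 at 6 and 1 and Ccnd2 at 0 and 3. Glycolysis and hypoxia genes had 25 and 6 (22.3% and 6.45%) and sebaceous gland genes 17 and 10 (29.8% and 20%).

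**Figure D5:**
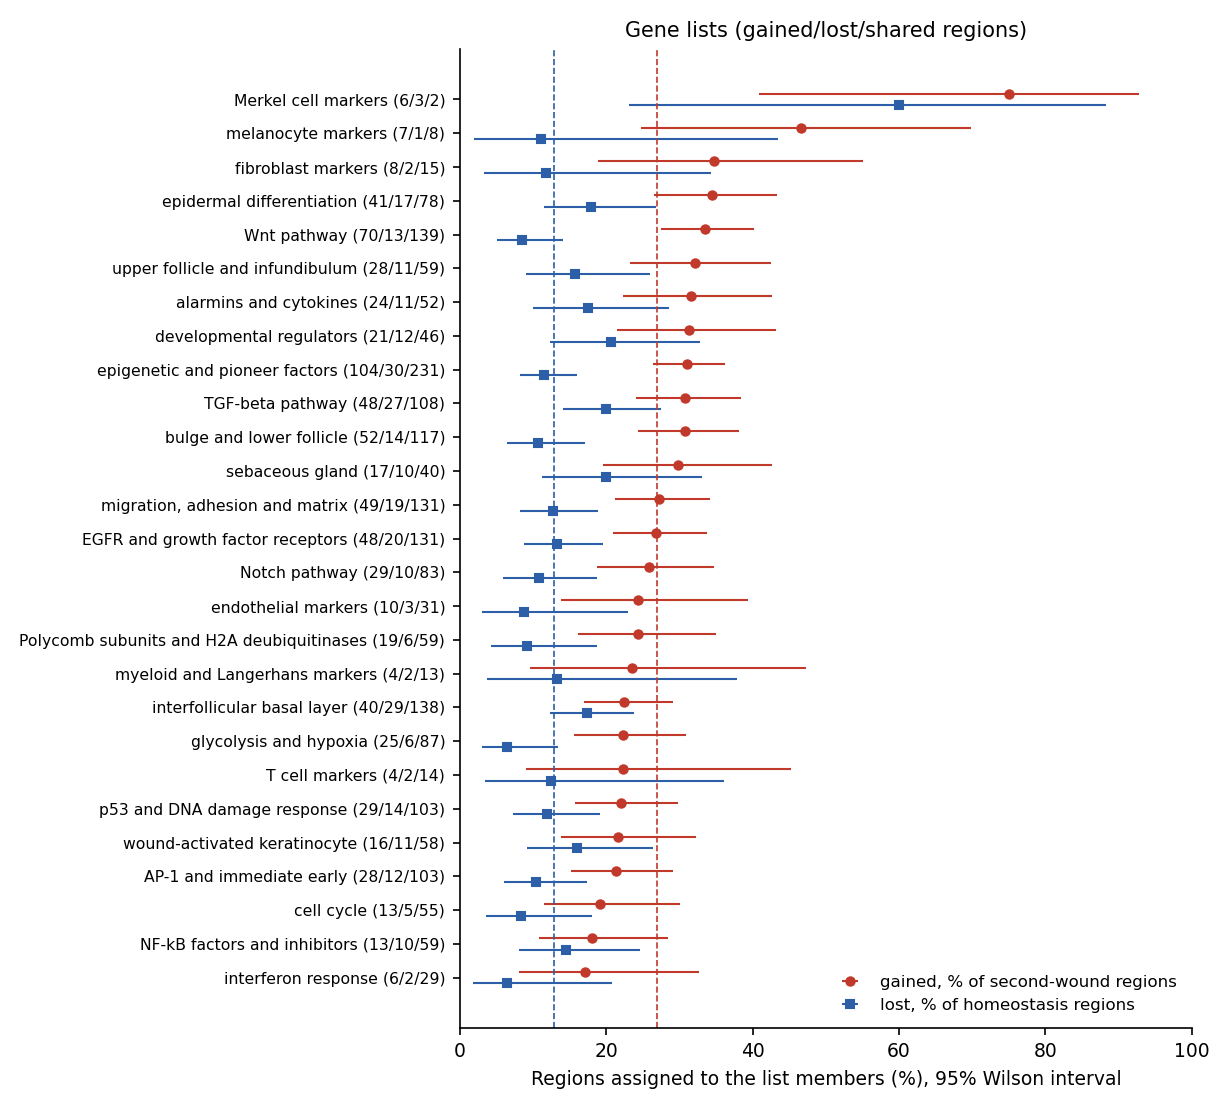
Share of second-wound regions that were gained (red circles) and of homeostasis regions that were lost (blue squares) for the 27 gene lists (x axis, percent, bars are 95% Wilson intervals), with counts of gained, lost and shared regions after each name and dashed lines at the values of all protein-coding genes, 26.9% and 12.9%. The Wnt pathway lies right of the red line and left of the blue one. The interfollicular basal layer lies left of the red and right of the blue, with intervals that cross both. Most intervals cross the lines. Those wholly above are the gained shares of Wnt and Merkel cell lists and the lost shares of Merkel cell and TGF-beta lists. The Merkel cell shares, 75% gained and 60% lost, are the highest and rest on 8 and 5 regions.

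Median rank changes of the lists' shared regions ran from -8.42 points (myeloid and Langerhans markers) and -4.29 (interferon response) to 2.55 (upper follicle). These medians rest on 13, 29 and 59 shared regions, and most of the 13 lie at the epithelial gene Epcam. The Wnt pathway had -0.30 and AP-1 genes -0.25, beside -0.33 over all genes. With equal list lengths, which hold the totals of gained and lost near each other, the direction of most lists turned. Over all protein-coding genes gained minus lost came to 6219 regions as deposited and to -157 with equal lengths, and of the 27 lists, which all had more gained than lost, 4 kept more gained, 20 had more lost and 3 had as many of each. The 4 were the Wnt pathway and the fibroblast, melanocyte and Merkel cell markers. With genes within 20 kb 25 lists kept their direction.

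Some microRNA genes next to gained and lost regions make the same or nearly the same mature sequence. Of 1005 RefSeq hairpins, 52 lay within 2 kb of a gained region, 22 within 2 kb of a lost one and 1 of both, against 166 near a shared one. The cluster of Mir23a, Mir27a and Mir24-2 on chromosome 8 lay near a gained region (percentile 9.93 of its list), and its paralogue Mir23b, Mir27b and Mir24-1 on chromosome 13 near a lost one (percentile 1.20), with no shared region near either. Mir193a was near a gained region (percentile 58.0) and Mir193b near a lost one (10.9), and Mir152 near a gained (32.6) and Mir148a near a lost one (5.76). Mir200a and Mir429, of the miR-200 family that keeps epithelial identity, lay near 1 gained region (8.73). The mature sequences are grouped by their seed, bases 2 to 8, in capitals.
miR-23a-3p: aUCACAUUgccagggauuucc
miR-27a-3p: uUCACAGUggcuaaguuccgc
miR-27b-3p: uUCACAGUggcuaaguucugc
miR-24-3p: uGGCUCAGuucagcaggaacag
miR-193a-3p: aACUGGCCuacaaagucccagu
miR-193b-3p: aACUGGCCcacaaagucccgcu
miR-152-3p: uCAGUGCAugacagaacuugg
miR-148a-3p: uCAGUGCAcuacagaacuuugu
miR-200a-3p: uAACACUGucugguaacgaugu
miR-429-3p: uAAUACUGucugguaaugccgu
miR-24-3p comes from both clusters with the same letters, and miR-27a-3p and miR-27b-3p, the miR-193 pair, and miR-152-3p with miR-148a-3p share a seed. Most of these regions stand low in their lists, and position near a hairpin does not show that its RNA changed.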

How the data were processed

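The authors deposited 10 peak lists, in each of which they combined the 2 libraries of a group. The authors' columns give a score, a signal value, the −log10 p and a summit offset. Per the submitters' processing notes the build was mm10. The lists are named as conservative peaks of IDR, a filter on how well peaks are reproduced between replicates. Aligner, caller, other filters and read depth: not given in the sources used here. Depth is therefore known only as the length of a list, 62449 peaks at homeostasis and 73307 after the second wound.

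Overlapping peaks on the 19 autosomes, X and Y were merged, with signal value and summit from the strongest peak. Percentile ranks were taken among merged shared regions. Genes and starts come from RefSeq GRCm38.p6; starts covered 17491 of 21883 protein-coding genes (79.9%), starts on chromosome 18 were not used here, and starts replaced the planned gene ends. In the lists 629 of 632 members were found. Python 3.11.15, numpy 2.4.6, pandas 2.3.3, scipy 1.17.1 and matplotlib 3.10.9 were used, and overlap counts were checked with bedtools 2.31.1 and on simulated data.

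Members and lists were chosen with earlier results of these data known. Named genes were the 12 highest and 12 lowest by gained minus lost, up to 3 members of each list, the strongest gained and lost regions, in all and at starts, and the largest rank changes; other named starts, runs, microRNAs and the display of 6 promoters were chosen after their values were seen.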

Additional observations from a re-analysis of the deposited data

How the results depend on the processing

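No paired analysis was possible because each list pools both libraries of its group, and no library could be left out for the same reason. With the strongest 50% of each list 6004 regions were gained, 2516 lost and 15096 shared. Among regions above the median of their own list and absent from all of the other, 2594 were gained and 513 lost. Equal list length gave 8000 lost, 3326 genes with more lost than gained, and shares at starts of 5.11% of gained, 15.9% of lost and 29.1% of shared regions. A 500 bp window gave 4.74%, 9.44% and 25.6%. Vehicle as the control gave 1686 gained and 29679 lost regions, with 315 genes having more gained and 9945 more lost. The mean over the peaks of a region gave 3648 rises and 3506 falls in rank, and a change of 35 points 830 and 548. The cause was not tested where it is not set by the construction of the alternative. The other 28 of 49 values, all of them counts, were within 1.5 times those reported. The widest moves among them were 8174 gained regions and 3344 genes with more gained at equal length, and 2553 falls in rank with vehicle. They include the values without regions under 300 bp wide, an alternative chosen after seeing the data: 10523 gained, 3892 lost, 1854 rises and 1636 falls. Of the 27 lists, 20 turned to more lost at equal length and 27 with vehicle.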

Other observations

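The strongest gained regions of all were narrow and unique to the second-wound list. They lay within Npffr2 (signal value 43.7), near Ntrk2 (39.6), near Tmem215 (37.1) and within Tmem170 (35.3), were 200 to 214 bp wide, and were in 0 of the other 8 lists. Of 16 gained regions with a signal value of at least 25, 15 were under 300 bp wide, and no lost region reached that value. Over the whole second-wound list 39 regions were that strong and that narrow, against 16 at homeostasis and 10 to 22 in the other 8 lists. The strongest lost regions, by contrast, were 338 to 574 bp wide: 1 lay 205 kb from the connexin gene Gja1 (15.9), and others at Aadacl2 (15.7), within the Skint4 gene (15.5), at Snap23 (14.8) and within Pibf1 (14.8). These, except that of Aadacl2 in 6, were in all 8 other lists.

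Long runs of gained regions without a shared or lost one between were also at Wwox (9 over 521 kb), near Tomm20 (9 over 200.04 kb) and at Epop, Mllt6 and Srcin1 (7 over 84.0 kb). Lost runs were shorter, in a class of 4534 regions against 11512 gained ones. Examples held 4 at Amigo1 and Gpr61 (44.5 kb), 4 near Ugt8a (26.1 kb) and 3 at Sgk3, a kinase gene (2.42 kb).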
